A study of Homo sapiens with 24 samples.

Results

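The effect of ruxolitinib on gene expression after 48 h was set against its effect after 4 h in HEL cells, by RNA sequencing. At each time the effect on a gene was the log2 fold change of ruxolitinib over DMSO, and the difference of effects was the value at 48 h minus the value at 4 h. A positive difference therefore marks a gene whose effect was higher at 48 h. The comparison took in every gene that passed a filter on low counts, 16076 of 34213, and 8 of the 24 libraries. The 4 groups were 500 nM ruxolitinib for 48 h, DMSO for 48 h, 500 nM ruxolitinib for 4 h and DMSO for 4 h, with 2 libraries each. HEL is 1 human erythroleukaemia line whose growth rests on a mutant, constantly active JAK2, and every group was made from it without any other genetic change in the labels. The other libraries held fedratinib, momelotinib, pacritinib or itacitinib at the same dose and times. Momelotinib and itacitinib are used below as a comparison.

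Ruxolitinib is an inhibitor of the kinases JAK1 and JAK2. These kinases sit on cytokine receptors, among them the erythropoietin receptor, and phosphorylate STAT transcription factors, which then enter the nucleus and raise genes such as PIM1, CISH and the SOCS genes. CISH and the SOCS proteins feed back on the receptor and dampen it. JAK signalling also feeds the RAS-ERK cascade, whose own targets include ETS factors, dual-specificity phosphatases and Sprouty proteins. In red cell precursors the same receptor supports survival, while haemoglobin, haem synthesis and the membrane skeleton are built up during maturation.

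The 8 libraries held between 32153866 and 45550784 counts each. Levels are given as CPM, read counts scaled by library size. The labels do not say whether the 2 libraries of a group came from separate cultures, so each p-value is set against the spread between libraries of 1 group, estimated over all 24 libraries, and that spread may be technical. The identity markers of HEL cells were present, with GATA1 at 194 to 234 CPM and TAL1 at 443 to 531 CPM over the 8 libraries. Of 16 markers of other cell types, the 8 below the low-count filter, among them MS4A1, CD14, MPO and ELANE, were at 0 to 0.303 CPM. Others were detected, with the myeloid marker LYZ at 35.4 to 39.1 CPM, the B cell marker CD79A at 4.44 to 7.84 CPM, and PECAM1, of endothelial cells and platelets, at 152 to 184 CPM. Together, the mitochondrial rRNAs MT-RNR1 and MT-RNR2 held 0.0627% and 0.0584% of counts in the 2 libraries with ruxolitinib at 48 h. Their summed share was 0.0586% and 0.0912% in the 2 libraries with DMSO at 48 h. At 4 h it was 0.0604% and 0.0611% with ruxolitinib, against 0.0181% and 0.00715% with DMSO. The DMSO libraries at 4 h thus stood below the other groups of this comparison for these RNAs. Outside it, the pacritinib libraries at 4 h were also low, at 0.0141% and 0.0191%. The part of the low DMSO share in other results was not tested beyond leaving those genes out. Without mitochondrial and RN7SL genes, 1392 of the 1402 differences described next were still called.

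The effect of ruxolitinib differed between the times for 1402 genes, 8.72% of those tested (edgeR's quasi-likelihood test, Benjamini-Hochberg adjusted p under 0.05, as for all calls here). It was higher at 48 h for 694 genes (4.32%) and lower for 708 genes (4.4%), while the median difference over all tested genes was 0.01 on the log2 scale. A difference of at least 2-fold was found for 62 genes with a higher and 127 with a lower effect. At 48 h ruxolitinib changed 4137 genes (25.7%), of which 2011 rose (12.5%) and 2126 fell (13.2%). At 4 h it changed 1361 genes (8.47%), of which 550 rose (3.42%) and 811 fell (5.04%). The count of differences depended on single libraries: without replicate 2 of ruxolitinib at 48 h it was 445 higher and 464 lower genes. Between the DMSO groups, 1312 genes (8.16%) differed at 48 h from 4 h, with 649 higher (4.04%) and 663 lower (4.12%). Of the 694 genes with a higher effect, 160 also had a called DMSO change, 130 of them opposite in sign to the difference. Of the 708 with a lower effect these counts were 179 and 142. The DMSO change enters the difference of effects with its sign turned, and both comparisons use the same DMSO libraries. Opposite signs are therefore favoured in advance, and the calls are not independent. How far the DMSO level contributes to these differences was not tested. Counts of ruxolitinib effects at 4 h were lower still when a library was missing, with 254 to 316 genes higher and 462 to 567 lower.

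Genes were sorted by when ruxolitinib changed them. Late genes, called at 48 h and in the difference but not at 4 h, made up most of the differences, with 474 that rose at 48 h and 532 that fell. Deepened genes were called in the same direction at both times and moved further at 48 h, with 83 higher and 99 lower. Faded genes were called in 1 direction at both times and moved less at 48 h. All 19 of these were lower with ruxolitinib. Early genes, called at 4 h and in the difference but not at 48 h, were 40 higher and 70 lower at 4 h. Reversed genes were called in opposite directions, with 21 higher at 48 h and lower at 4 h, and 15 the other way round. Held genes were called in the same direction at both times with no call in the difference, and there were 238 higher and 397 lower. A missing call does not show that the effect of these held genes was equal at the times.

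**Figure D1:**
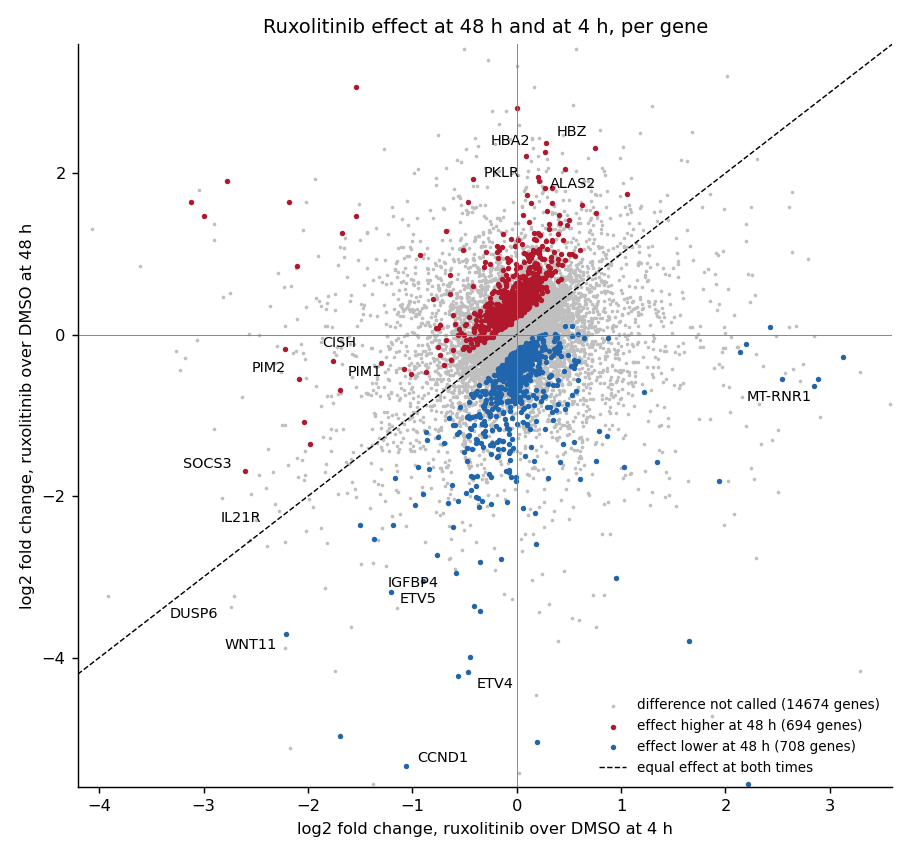
Each point is a tested gene, with its log2 fold change of ruxolitinib over DMSO at 4 h on the x axis and at 48 h on the y axis (n = 2 libraries a group). Red genes (694) had a higher and blue genes (708) a lower effect at 48 h, grey genes had no call in the difference, the dashed line marks equal effects, and 32 genes lie outside the axes. PIM2, CISH and PIM1 sit far to the left and above the dashed line, and at 48 h were still lowered, at −0.55, −0.33 and −0.69. The alpha-globin genes HBZ and HBA2 lie high at 48 h, with effects of 0.28 and 0.27 at 4 h. ETV4, ETV5 and CCND1 lie far below the dashed line.

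6 targets of JAK-STAT signalling fell at 4 h and lay closer to DMSO at 48 h. PIM2, a kinase that supports survival and protein synthesis (chromosome X, 48913182 to 48919024, GRCh38), had 109 and 104 CPM with ruxolitinib at 48 h, against 156 and 156 CPM with DMSO at 48 h. PIM2 at 4 h had 44.1 and 43.1 CPM with ruxolitinib, against 183 and 188 CPM with DMSO. Ruxolitinib libraries were below DMSO libraries at both times, with no overlap, and the gap was far wider at 4 h. The effect on PIM2 was −0.55 ± 0.06 at 48 h and −2.09 ± 0.06 at 4 h (log2 ± SE), a difference of 1.54 ± 0.09 (adjusted p = 6.7e-14).

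CISH, which blocks STAT5 docking at cytokine receptors (chromosome 3, 50606490 to 50611831), had 36 and 35 CPM with ruxolitinib at 48 h, against 44.4 and 44.6 CPM with DMSO at 48 h. After 4 h the levels were 13.8 and 14.4 CPM with ruxolitinib, against 43.7 and 51.9 CPM with DMSO. The DMSO levels overlapped between the times, and the ruxolitinib libraries at 4 h were the lowest. The effect was −0.33 ± 0.08 at 48 h and −1.76 ± 0.08 at 4 h, a difference of 1.44 ± 0.11 (adjusted p = 5.7e-11). The CISH promoter is shown because the gene is a textbook STAT5 target and faded more than any other called gene of the JAK-STAT list except PIM2. The run gives the 250 bases before its start in RefSeq on GRCh38.p14, 5′ to 3′, with each match to TTCNNNGAA, the core of a STAT site on either strand, in capitals.
CISH (chr3:50611775-50612024, minus strand): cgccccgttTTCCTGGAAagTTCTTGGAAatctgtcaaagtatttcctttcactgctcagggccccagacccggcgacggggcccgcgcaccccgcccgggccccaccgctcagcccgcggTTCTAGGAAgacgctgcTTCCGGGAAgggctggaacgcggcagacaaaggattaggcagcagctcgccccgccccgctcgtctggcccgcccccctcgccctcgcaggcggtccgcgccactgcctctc
The CISH window of 250 bases before and 50 after the start held 4 matches, whose first bases lay 241, 230, 129 and 112 bases before it. Of 11333 tested genes with a promoter in the RefSeq table, 736 (6.49%) held at least 1 match. Of the 19 faded genes, 16 had a promoter and 3 of these (18.8%) held a match. The promoters of PIM1, PIM2, SOCS3, ID1 and BCL2L1, which also faded, held 0 matches. Among other classes lowered by ruxolitinib the share was 10.5% for early, 11.9% for deepened, 8.08% for held and 4.95% for late genes. Of the 26 tested JAK-STAT target genes, 18 had a promoter and 2 held a match (11.1%). A match to these letters is a description of the sequence, not a measured binding site.

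PIM1, a kinase related to PIM2 (chromosome 6, 37170203 to 37175426), had 365 and 341 CPM with ruxolitinib at 48 h, against 564 and 573 CPM with DMSO at 48 h. PIM1 at 4 h had 190 and 200 CPM with ruxolitinib, against 628 and 632 CPM with DMSO. As with PIM2, the 2 ruxolitinib libraries at 4 h were the lowest of the 8. The difference of effects was 1.00 ± 0.08 (adjusted p = 2.6e-11). SOCS3, a feedback inhibitor of JAK kinases, had 11.3 and 9.97 CPM with ruxolitinib at 48 h, against 32.5 and 36.4 CPM with DMSO at 48 h. Its 4 h levels were 5.18 and 5.53 CPM with ruxolitinib, against 33.4 and 32.1 CPM with DMSO. SOCS3 stayed well below DMSO at 48 h, with effects of −1.69 ± 0.13 at 48 h and −2.61 ± 0.15 at 4 h and a difference of 0.91 ± 0.21 (adjusted p = 0.0028). ID1, an inhibitor of helix-loop-helix factors, faded in the same way, with a difference of 0.63 ± 0.11 (adjusted p = 0.00022). BCL2L1, which encodes the survival protein BCL-XL, had effects of −0.46 ± 0.04 at 48 h and −0.87 ± 0.04 at 4 h, and its difference of 0.41 ± 0.06 was called (adjusted p = 2e-05). FOSL1, an AP-1 subunit outside the list, also faded, by 0.66 ± 0.12 (adjusted p = 0.00024).

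For other targets of the same signalling no difference between the times was called. SOCS1, another JAK inhibitor, had 2.37 and 2.49 CPM with ruxolitinib at 48 h, against 9.06 and 7.5 CPM with DMSO at 48 h. SOCS1 at 4 h had 2.78 and 2.63 CPM with ruxolitinib, against 11.4 and 11.7 CPM with DMSO. Ruxolitinib libraries lay below DMSO libraries without overlap at both times, and the difference of effects was 0.33 ± 0.27 (adjusted p = 0.55). BCL3, a nuclear partner of NF-kB, had effects of −2.09 ± 0.17 at 48 h and −2.32 ± 0.16 at 4 h. IL21R, the interleukin-21 receptor, had −2.19 ± 0.12 at 48 h and −2.28 ± 0.12 at 4 h. SOCS2 had effects of −0.38 ± 0.08 at 48 h and −0.53 ± 0.08 at 4 h. LIF, a cytokine, and IL4R, the interleukin-4 receptor, were lower at both times without a call in the difference, at −0.26 ± 0.21 and −0.37 ± 0.17 on the log2 scale. OSM, the cytokine oncostatin M, was called at 4 h (−1.10 ± 0.19) but not at 48 h (−0.42 ± 0.19), and its difference of 0.68 ± 0.27 was not called (adjusted p = 0.11), except without replicate 1 of ruxolitinib at 48 h (adjusted p = 0.0439).

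Over the list of JAK-STAT target genes, 26 were tested and the effect was higher at 48 h for 7 and lower for 1. The shares of all tested genes were 4.32% and 4.4%. The median difference was 0.14, beside 0.01 for all tested genes. At 48 h 1 member rose and 17 fell, beside 12.5% and 13.2% of all tested genes. At 4 h 0 rose and 23 fell, beside 3.42% and 5.04%. The single member with a lower effect at 48 h was CCND2, which is described with the cyclins. MYC, the growth-promoting transcription factor, had 786 and 799 CPM with ruxolitinib at 48 h, against 748 and 726 CPM with DMSO at 48 h. The 4 h libraries held 821 and 815 CPM with ruxolitinib, against 917 and 915 CPM with DMSO. Its levels were higher than DMSO at 48 h and lower at 4 h, and the difference was 0.27 ± 0.06 (adjusted p = 0.0013). The call at 48 h (0.10 ± 0.04, adjusted p = 0.0495) was at the threshold and was lost under 7 alternatives, including scaling by RLE (adjusted p = 0.065). The call at 4 h was lost without replicate 2 of either group (adjusted p up to 0.0766).

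**Figure D2:**
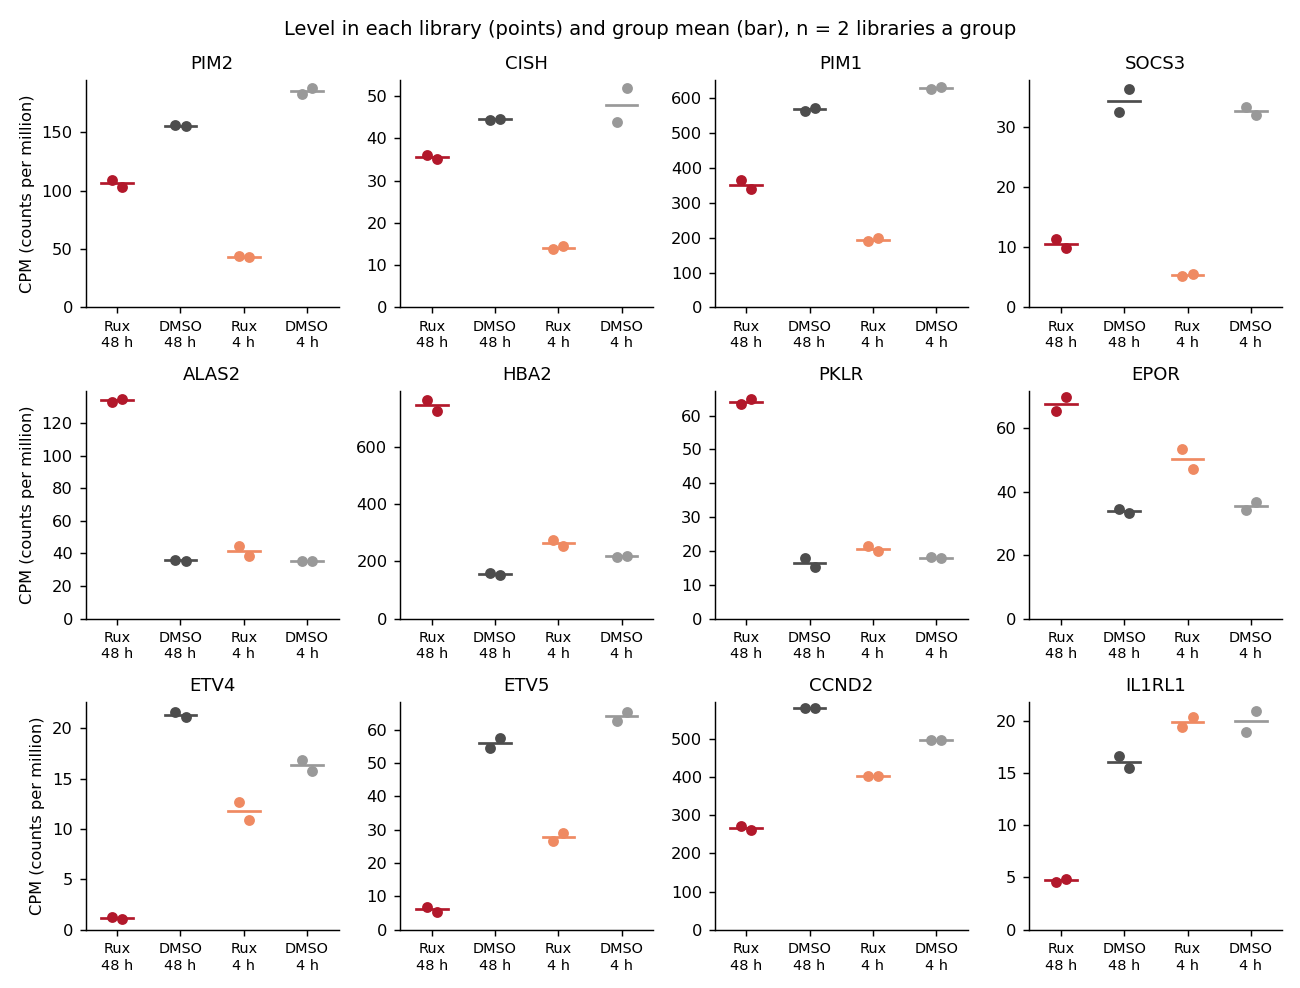
The CPM of 12 genes in each library (points) with the group mean (bar), for ruxolitinib at 48 h, DMSO at 48 h, ruxolitinib at 4 h and DMSO at 4 h, n = 2 libraries a group. In the upper row ruxolitinib libraries were lowest at 4 h, for example PIM2 at 44.1 and 43.1 CPM. In the middle row they were highest at 48 h, and in the lower row they were lowest at 48 h, with ETV4 at 1.3 and 1.05 CPM.

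JAK2, the STAT5 genes and receptor chains that signal through JAK2 had higher effects at 48 h. JAK2 had 276 and 286 CPM with ruxolitinib at 48 h, against 168 and 177 CPM with DMSO at 48 h. JAK2 at 4 h had 192 and 199 CPM with ruxolitinib, against 165 and 159 CPM with DMSO. The 2 ruxolitinib libraries at 48 h stood above all others, and JAK2 rose by 0.70 ± 0.05 at 48 h and 0.27 ± 0.05 at 4 h, with a difference of 0.43 ± 0.07 (adjusted p = 0.00015). EPOR, the erythropoietin receptor, had 65.3 and 69.9 CPM with ruxolitinib at 48 h, against 34.5 and 33.2 CPM with DMSO at 48 h. After 4 h the levels were 53.5 and 47.2 CPM with ruxolitinib, against 34.1 and 36.7 CPM with DMSO. EPOR was thus already raised at 4 h, and its difference was 0.49 ± 0.10 (adjusted p = 0.00069). CSF2RB, the common beta chain of the interleukin-3, interleukin-5 and GM-CSF receptors, rose by 0.79 ± 0.05 at 48 h and 0.37 ± 0.05 at 4 h, a difference of 0.43 ± 0.07 (adjusted p = 7.4e-05).

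STAT5A, one of the factors that JAK2 phosphorylates, had 477 and 495 CPM with ruxolitinib at 48 h, against 396 and 386 CPM with DMSO at 48 h. STAT5A at 4 h had 409 and 406 CPM with ruxolitinib, against 395 and 403 CPM with DMSO. The rise was called at 48 h alone, and the difference was 0.28 ± 0.06 (adjusted p = 0.0014). STAT5B did likewise, with a difference of 0.30 ± 0.06 (adjusted p = 0.00096). JAK1 (−0.08 ± 0.07) and STAT3 (0.11 ± 0.06) had no call in the difference. Of 11 JAK and STAT genes tested, 3 had a higher and 0 a lower effect at 48 h, with a median difference of 0.11. At an unadjusted p under 0.05 these counts were 4 and 2 by edgeR, and DESeq2 called 3 and 1. Among all tested genes, 4.32% had a called higher and 4.4% a called lower effect at 48 h.

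Receptors and adaptors moved in both directions, 5 of 26 with a higher and 4 with a lower effect at 48 h and a median difference of 0.06. The shares of all tested genes were 4.32% and 4.4%. IL2RB, the interleukin-2 receptor beta chain, had 7.46 and 7.06 CPM with ruxolitinib at 48 h, against 18 and 17.8 CPM with DMSO at 48 h. Its 4 h levels were 14.8 and 15.4 CPM with ruxolitinib, against 19 and 20.4 CPM with DMSO. Its fall deepened by −0.92 ± 0.14 (adjusted p = 3.5e-05), and that of CBL, a ubiquitin ligase that removes active receptors, by −0.59 ± 0.10 (adjusted p = 7.4e-05). The calls at 4 h were lost without any 1 of 3 libraries at that time, for IL2RB (adjusted p up to 0.134) as for CBL (up to 0.461). IL6ST, the gp130 chain shared by receptors of the interleukin-6 family, was higher than DMSO at 48 h (0.26 ± 0.08) and lower at 4 h (−0.41 ± 0.08). Its difference was 0.67 ± 0.12 (adjusted p = 0.00013), while the call at 48 h was lost without replicate 1 of DMSO at 48 h (adjusted p = 0.145) or replicate 2 of ruxolitinib at 48 h (adjusted p = 0.248), and that at 4 h without replicate 1 of ruxolitinib at 4 h (adjusted p = 0.0513).

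The gene list with the highest share of differences was the erythroid one. Of 49 tested members, 34 had a higher and 0 a lower effect at 48 h, beside 4.32% and 4.4% of all tested genes, with a median difference of 0.44. At 48 h 43 members rose, 1 fell and the median effect was 0.59, beside 12.5% and 13.2% of all tested genes that rose and fell. At 4 h 14 rose, 1 fell and the median effect was 0.15, beside 3.42% and 5.04%. At an unadjusted p under 0.05 edgeR gave 38 higher and 0 lower members, and DESeq2 called 34 and 0. The count of higher members was 31 to 34 when single libraries were left out and 33 to 36 under the other alternatives. In bulk RNA a larger share of maturing cells and more RNA per cell cannot be told apart.

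The alpha-globin cluster at the tip of chromosome 16 held the steepest rises. HBZ, the embryonic zeta-globin gene (152687 to 154503), had 34.6 and 32.4 CPM with ruxolitinib at 48 h, against 7.65 and 5.26 CPM with DMSO at 48 h. HBZ at 4 h had 10.8 and 9.94 CPM with ruxolitinib, against 8.19 and 8.83 CPM with DMSO. The effect was 2.38 ± 0.14 at 48 h and 0.28 ± 0.14 at 4 h, a difference of 2.09 ± 0.20 (adjusted p = 2.5e-09). HBA2, an adult alpha-globin gene (172876 to 173710), had 766 and 727 CPM with ruxolitinib at 48 h, against 159 and 152 CPM with DMSO at 48 h. The 4 h libraries held 273 and 252 CPM with ruxolitinib, against 217 and 219 CPM with DMSO. The 2 ruxolitinib libraries at 48 h stood far above the rest, and the difference was 1.99 ± 0.14 (adjusted p = 4.3e-12). DMSO itself was lower at 48 h than at 4 h for HBA2 (−0.49 ± 0.10, adjusted p = 0.0014). HBA1, the neighbouring copy, rose at both times and had a difference of 1.49 ± 0.14 (adjusted p = 5e-09). Its call at 4 h was lost with DESeq2 (adjusted p = 0.135) and without any 1 of the 4 libraries at 4 h (adjusted p = 0.0543 to 0.257). HBA1 and HBA2 are nearly identical, so the split of reads between them is uncertain.

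HBM, the mu-globin gene of the cluster, was read by few counts, 116 and 94 with ruxolitinib at 48 h, against 15 and 17 with DMSO at 48 h. HBM at 4 h had 26 and 24 counts with ruxolitinib, against 27 and 29 with DMSO. The difference was 2.81 ± 0.57 (adjusted p = 0.00094), and that of HBQ1, the theta-globin gene, was 1.01 ± 0.15 (adjusted p = 9.2e-06). In the beta-globin cluster on chromosome 11 the rises were smaller. HBG2, a fetal gamma-globin gene, had 2964 and 2958 CPM with ruxolitinib at 48 h, against 1798 and 1786 CPM with DMSO at 48 h. After 4 h the levels were 2104 and 1920 CPM with ruxolitinib, against 1974 and 1891 CPM with DMSO. The groups overlapped at 4 h and not at 48 h, and the difference was 0.67 ± 0.09 (adjusted p = 1.1e-06). HBE1, the embryonic epsilon-globin gene, had a difference of 0.34 ± 0.09 (adjusted p = 0.0098), which was lost without any of 3 single libraries (adjusted p up to 0.0884). HBG1, which is nearly identical to HBG2, had 0.38 ± 0.18 and HBD, the delta-globin gene, −0.04 ± 0.21, without a call. The difference of HBG1 was called without the low-count filter (adjusted p = 1.84e-05) and in a fit of the compared groups only (adjusted p = 0.00109).

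Haem synthesis genes had higher effects at 48 h as well. ALAS2, the erythroid enzyme of the first step (chromosome X, 55009055 to 55031064), had 133 and 135 CPM with ruxolitinib at 48 h, against 36.3 and 35.4 CPM with DMSO at 48 h. ALAS2 at 4 h had 44.5 and 38.5 CPM with ruxolitinib, against 35.5 and 35.7 CPM with DMSO. The 2 ruxolitinib libraries at 48 h stood far above the others, and the difference was 1.69 ± 0.12 (adjusted p = 5.7e-12). ALAD, the second enzyme, rose by 1.25 ± 0.06 at 48 h and 0.39 ± 0.07 at 4 h, a difference of 0.85 ± 0.09 (adjusted p = 4.3e-08). The differences of UROD (0.30 ± 0.07) and FECH (0.50 ± 0.07), later enzymes of the pathway, were called. CPOX rose at both times and its difference of 0.08 ± 0.06 was not called (adjusted p = 0.5). BLVRB, a biliverdin reductase of red cells, had 242 and 253 CPM with ruxolitinib at 48 h, against 75.3 and 73.6 CPM with DMSO at 48 h. Its 4 h levels were 91.5 and 84.2 CPM with ruxolitinib, against 82.9 and 80.7 CPM with DMSO, and the difference was 1.63 ± 0.11 (adjusted p = 4.3e-12).

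TFRC, the transferrin receptor, had 1776 and 1736 CPM with ruxolitinib at 48 h, against 913 and 934 CPM with DMSO at 48 h. TFRC at 4 h had 1130 and 1161 CPM with ruxolitinib, against 1183 and 1212 CPM with DMSO. Ruxolitinib was above DMSO at 48 h and below it at 4 h, where the effect of −0.06 ± 0.05 was not called, and the difference was 0.99 ± 0.07 (adjusted p = 2.9e-12). SLC25A37, the mitochondrial iron importer, deepened by 0.43 ± 0.07 (adjusted p = 3.4e-05). SLC40A1, the iron exporter ferroportin, was raised by 0.91 ± 0.05 at 48 h and 0.72 ± 0.05 at 4 h, with a difference of 0.19 ± 0.07 that was at the threshold (adjusted p = 0.063). It was called with DESeq2 (adjusted p = 0.0417), in the compared groups only (adjusted p = 0.0422) and with the replicate number as a block (adjusted p = 0.0498).

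PKLR, the pyruvate kinase of red cells (chromosome 1, 155289293 to 155301438), had 63.3 and 64.8 CPM with ruxolitinib at 48 h, against 18 and 15.2 CPM with DMSO at 48 h. The 4 h libraries held 21.6 and 19.9 CPM with ruxolitinib, against 18.2 and 17.8 CPM with DMSO. The rise at 4 h was not called, and the difference was 1.75 ± 0.12 (adjusted p = 5.7e-12). Genes of the membrane skeleton also rose more at 48 h. SPTB, beta spectrin, had 273 and 286 CPM with ruxolitinib at 48 h, against 143 and 139 CPM with DMSO at 48 h. SPTB at 4 h had 142 and 151 CPM with ruxolitinib, against 132 and 134 CPM with DMSO. The difference was 0.85 ± 0.07 (adjusted p = 2.3e-10), beside 0.69 ± 0.07 for EPB42, protein 4.2, and 0.34 ± 0.06 for ANK1, ankyrin, all called.

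Blood group and glycophorin genes had smaller differences. Those of the glycophorin genes GYPB (0.55 ± 0.08) and GYPE (0.47 ± 0.08) were called, with reads that may be shared between near copies. KEL, the Kell antigen, had 0.46 ± 0.08 and XK, its membrane partner, 0.37 ± 0.07. RHD and RHCE, the paired rhesus genes, had 0.41 ± 0.07 each.

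Of the erythroid transcription factors named here, LMO2, TAL1 and NFE2 had a called difference, while GATA1, KLF1 and GFI1B had none. GATA1, the master regulator of the lineage, had 222 and 234 CPM with ruxolitinib at 48 h, against 204 and 208 CPM with DMSO at 48 h. GATA1 at 4 h had 216 and 204 CPM with ruxolitinib, against 194 and 197 CPM with DMSO. The difference was 0.04 ± 0.07 (adjusted p = 0.81). KLF1, the activator of adult globin genes, rose by 0.52 ± 0.05 at 48 h and 0.31 ± 0.05 at 4 h, without a call in the difference (0.22 ± 0.08, adjusted p = 0.08). That difference was called in the compared groups only (adjusted p = 0.0298) and without replicate 1 of ruxolitinib at 48 h (adjusted p = 0.0262). LMO2, a bridging partner of GATA1 and TAL1, rose late with a difference of 0.55 ± 0.07 (adjusted p = 1.7e-06), and TAL1 had 0.28 ± 0.06 (adjusted p = 0.0011). NFE2 had 0.19 ± 0.06 (adjusted p = 0.043), and this call was lost without any 1 of the 8 libraries (adjusted p up to 0.18). GFI1B, a repressor, was the member that fell at both times, with −0.41 ± 0.06 at 48 h and −0.57 ± 0.06 at 4 h.

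**Figure D3:**
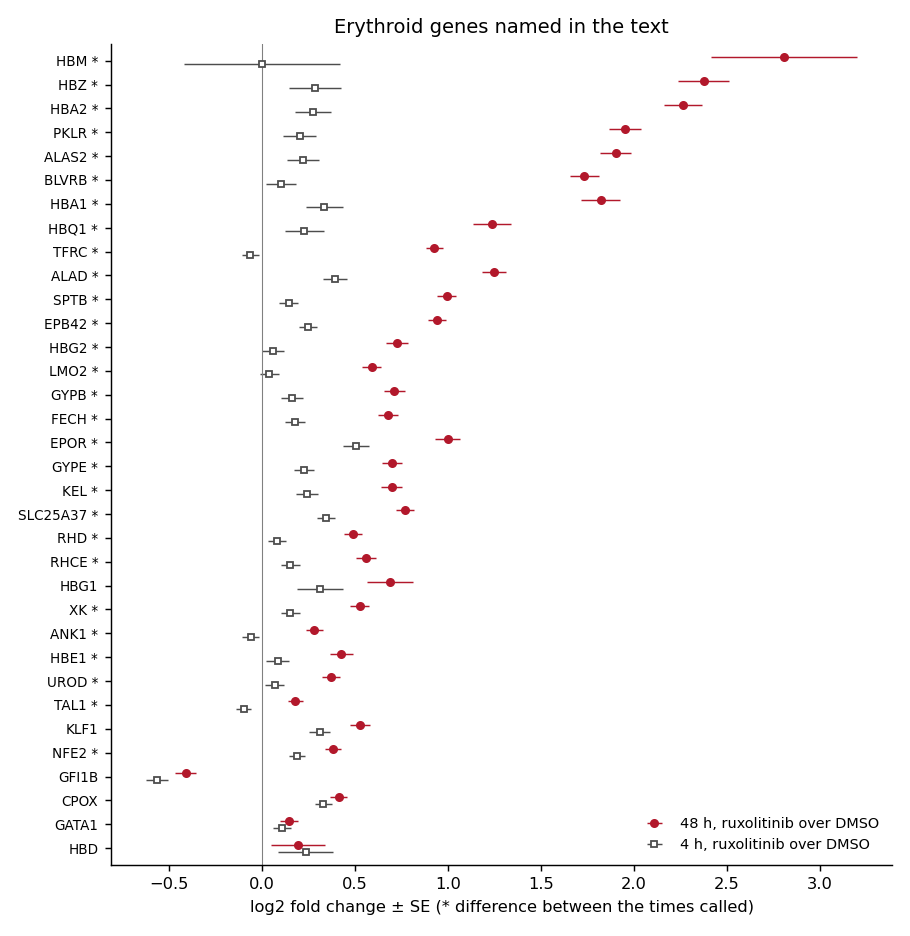
Log2 fold change ± SE of ruxolitinib over DMSO at 48 h (filled red circles) and at 4 h (open squares) for 34 of the 49 tested erythroid genes, those named in the text, in order of the difference of effects, n = 2 libraries a group. Stars mark called differences, 28 of the 34 drawn, beside 34 of all 49 tested, so called genes are over-represented here. At 48 h the upper genes lie far to the right, up to 2.81 for HBM, while at 4 h most lie near 0.

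Promoters of 3 late or deepened erythroid genes are shown because AGATAA, the letters that GATA factors bind, was frequent in this list. Each run gives the 250 bases before the start in RefSeq on GRCh38.p14, 5′ to 3′, with AGATAA on either strand in capitals, so that TTATCT marks a match on the other strand.
ALAS2 (chrX:55030978-55031227, minus strand): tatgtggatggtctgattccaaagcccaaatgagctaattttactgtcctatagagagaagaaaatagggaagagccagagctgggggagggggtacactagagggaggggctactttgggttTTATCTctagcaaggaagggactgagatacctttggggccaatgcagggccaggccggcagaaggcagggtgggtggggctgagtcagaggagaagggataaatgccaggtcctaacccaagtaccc
PKLR (chr1:155301439-155301688, minus strand): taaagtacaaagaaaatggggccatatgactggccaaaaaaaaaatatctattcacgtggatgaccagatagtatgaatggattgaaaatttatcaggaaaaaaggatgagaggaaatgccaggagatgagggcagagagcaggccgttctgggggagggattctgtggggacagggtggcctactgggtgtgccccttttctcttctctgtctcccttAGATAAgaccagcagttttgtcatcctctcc
EPB42 (chr15:43221019-43221268, minus strand): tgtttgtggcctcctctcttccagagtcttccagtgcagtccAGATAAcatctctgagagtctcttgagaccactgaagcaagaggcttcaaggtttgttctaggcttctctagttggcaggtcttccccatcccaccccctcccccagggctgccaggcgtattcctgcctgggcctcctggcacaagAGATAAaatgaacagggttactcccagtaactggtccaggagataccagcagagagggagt
The match began 127 bases before the start in ALAS2 and 31 bases before it in PKLR, and EPB42 held matches at 208 and 61 bases before it. In windows of 250 bases before and 50 after the start, 13 of the 29 erythroid genes with a promoter in the RefSeq table held AGATAA (44.8%), beside 653 of 11333 tested genes (5.76%). The difference of effects was called for 11 of the 13 erythroid genes with the letters and for 8 of the 16 without. Among all late genes that rose, 22 of 367 with a promoter held AGATAA (5.99%), and among all deepened genes that rose, 9 of 65 did (13.8%). The 3 promoters shown were taken from those that hold AGATAA. TTCNNNGAA was in 0 of the 29 erythroid promoters. These counts describe the sequence windows and were not tested.

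Among outputs of ERK signalling, 4 genes had a lower effect at 48 h. ETV4, an ETS factor of the PEA3 group (chromosome 17, 43527844 to 43579620), had 1.3 and 1.05 CPM with ruxolitinib at 48 h, against 21.6 and 21.2 CPM with DMSO at 48 h. After 4 h the levels were 12.7 and 10.9 CPM with ruxolitinib, against 16.9 and 15.8 CPM with DMSO. The fall at 4 h was modest (−0.47 ± 0.12) and that at 48 h large (−4.18 ± 0.16), and the difference was −3.71 ± 0.21 (adjusted p = 6.7e-14). The call at 4 h was lost without replicate 2 of ruxolitinib at 4 h (adjusted p = 0.181) or replicate 1 of DMSO at 4 h (adjusted p = 0.069). ETV5, a relative of ETV4 (chromosome 3, 186046308 to 186110318), had 6.95 and 5.35 CPM with ruxolitinib at 48 h, against 54.6 and 57.6 CPM with DMSO at 48 h. ETV5 at 4 h had 26.5 and 28.9 CPM with ruxolitinib, against 62.6 and 65.3 CPM with DMSO. ETV5 was lower than DMSO at both times without overlap, and the difference was −1.98 ± 0.12 (adjusted p = 8.2e-13).

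CCND1 and CCND2, D-type cyclins that carry cells into S phase, fell further as well. CCND1 was close to the detection limit, with 6 and 2 counts with ruxolitinib at 48 h, against 186 and 171 counts with DMSO at 48 h. At 4 h CCND1 had 26 and 44 counts with ruxolitinib, against 61 and 104 counts with DMSO. These raw counts are not scaled by library size. The counts were much lower than DMSO at 48 h, and the difference of −4.28 ± 0.50 (adjusted p = 1.9e-07) rests on those few counts. The DMSO counts were themselves higher at 48 h than at 4 h, which also enters the difference. The call of CCND1 at 4 h was lost without replicate 1 of ruxolitinib (adjusted p = 0.14) or replicate 2 of DMSO (adjusted p = 0.138) at that time. CCND2 had 271 and 262 CPM with ruxolitinib at 48 h, against 581 and 581 CPM with DMSO at 48 h. CCND2 at 4 h had 404 and 404 CPM with ruxolitinib, against 497 and 497 CPM with DMSO. Its fall deepened to −1.12 ± 0.05 at 48 h, against −0.30 ± 0.05 at 4 h, a difference of −0.82 ± 0.07 (adjusted p = 4.9e-10). SPRY1, a Sprouty inhibitor, had a difference of −0.78 ± 0.25 (adjusted p = 0.044), and leaving out any 1 of 7 libraries raised its adjusted p to between 0.0699 and 0.251.

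Feedback phosphatases and early genes of the same list were already low at 4 h. DUSP6, an ERK phosphatase, had 1.22 and 1.26 CPM with ruxolitinib at 48 h, against 12.5 and 13.2 CPM with DMSO at 48 h. The 4 h libraries held 1.42 and 1.55 CPM with ruxolitinib, against 9.57 and 10.3 CPM with DMSO. Both times showed a fall of more than 2-fold, and the difference of −0.64 ± 0.24 was not called (adjusted p = 0.095). DUSP5 (−0.22 ± 0.21), SPRED1 (−0.08 ± 0.08) and SPRED2 (−0.14 ± 0.09) likewise had no call in the difference. EGR1, an immediate-early factor, had effects of −1.90 ± 0.14 at 48 h and −2.40 ± 0.14 at 4 h, with a difference of 0.50 ± 0.21 (adjusted p = 0.15). That difference was called without the low-count filter (adjusted p = 0.0277) and in a fit of the compared groups only (adjusted p = 0.0332). PHLDA1, an early-response gene, had 3.67 and 3.06 CPM with ruxolitinib at 48 h, against 7.16 and 9.26 CPM with DMSO at 48 h. PHLDA1 at 4 h had 13 and 15.9 CPM with ruxolitinib, against 51.3 and 48.9 CPM with DMSO, so the DMSO level itself was lower at 48 h, and the difference of 0.51 ± 0.21 was not called (adjusted p = 0.16) except without the low-count filter (adjusted p = 0.0496).

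Of 19 ERK output genes tested, 2 had a higher and 4 a lower effect at 48 h, and the median difference was −0.08. The shares of all tested genes were 4.32% and 4.4%. At 48 h 1 member rose and 13 fell, beside 12.5% and 13.2% of all tested genes. At 4 h 0 rose and 15 fell, beside 3.42% and 5.04%. MYC and FOSL1 were the 2 with a higher effect, and CCND1, ETV4, ETV5 and SPRY1 the 4 with a lower one.

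**Figure D4:**
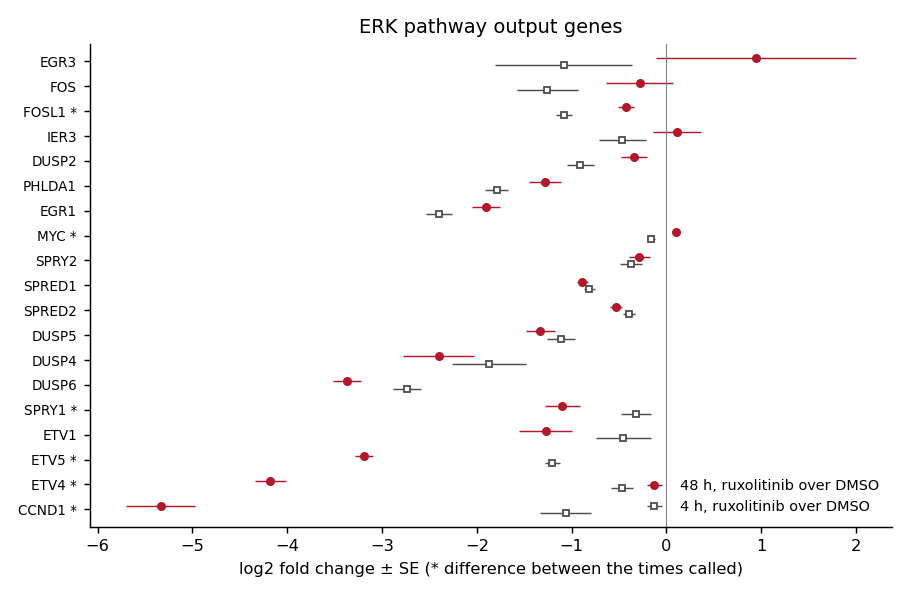
Log2 fold change ± SE of ruxolitinib over DMSO at 48 h (filled red circles) and at 4 h (open squares) for the 19 tested ERK output genes, in order of the difference of effects, n = 2 libraries a group. Stars mark called differences. ETV4 and ETV5 lie at −4.18 and −3.19 at 48 h but at −0.47 and −1.20 at 4 h, while DUSP6 and EGR1 lie far to the left at both times.

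Among the genes with large negative differences was IL1RL1, the interleukin-33 receptor (chromosome 2, 102311502 to 102352037). It had 4.61 and 4.84 CPM with ruxolitinib at 48 h, against 16.6 and 15.5 CPM with DMSO at 48 h. After 4 h the levels were 19.4 and 20.4 CPM with ruxolitinib, against 18.9 and 21 CPM with DMSO. The groups overlapped at 4 h and were far apart at 48 h, and the difference was −1.76 ± 0.13 (adjusted p = 2.9e-11). IGFBP4, a binding protein of insulin-like growth factors, had 3.08 and 2.61 CPM with ruxolitinib at 48 h, against 22.8 and 21.4 CPM with DMSO at 48 h. IGFBP4 at 4 h had 11.8 and 10.9 CPM with ruxolitinib, against 17 and 16.8 CPM with DMSO, and the difference was −2.37 ± 0.19 (adjusted p = 8.3e-11). WNT11, a secreted WNT ligand, had effects of −3.71 ± 0.17 at 48 h and −2.21 ± 0.16 at 4 h. FLT4, a VEGF receptor, had −1.87 ± 0.09 at 48 h and −0.39 ± 0.09 at 4 h. Falls called at 48 h and not at 4 h were seen in FEV, an ETS factor (difference −1.51 ± 0.13), PRF1, perforin (−1.46 ± 0.18), and SLC18A2, a vesicle transporter of monoamines (−1.24 ± 0.09). The fall at 4 h was called under some alternatives for FEV (adjusted p = 0.0138 in the compared groups only) and SLC18A2 (adjusted p = 0.0405 with DESeq2). SLC34A1, a phosphate transporter, deepened by −1.96 ± 0.21.

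Among the genes that deepened upward was PAPPA, a protease that cleaves IGFBP4. PAPPA had 29.3 and 28.6 CPM with ruxolitinib at 48 h, against 5.8 and 5.86 CPM with DMSO at 48 h. PAPPA at 4 h had 8.15 and 8.03 CPM with ruxolitinib, against 5.44 and 4.26 CPM with DMSO. Ruxolitinib was above DMSO at both times without overlap, and the difference was 1.56 ± 0.18 (adjusted p = 1.1e-07). FGFR3, a fibroblast growth factor receptor, had a difference of 1.06 ± 0.10 (adjusted p = 2.7e-09). LGR4, a receptor for R-spondins, was held, at 1.00 ± 0.07 at 48 h and 0.85 ± 0.07 at 4 h.

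Of 37 platelet lineage genes 6 had a higher and 6 a lower effect at 48 h, beside 4.32% and 4.4% of all tested genes, with a median difference of 0.03. TUBB1, the platelet beta-tubulin, had 45.3 and 47.6 CPM with ruxolitinib at 48 h, against 14.7 and 15.9 CPM with DMSO at 48 h. Its 4 h levels were 22.7 and 20.9 CPM with ruxolitinib, against 14.7 and 13.6 CPM with DMSO, and the difference was 0.97 ± 0.13 (adjusted p = 4.9e-06). GP6, the platelet collagen receptor, deepened its fall by −0.86 ± 0.13 (adjusted p = 3.5e-05) and SELP, P-selectin, by −0.98 ± 0.12 (adjusted p = 3.7e-07). These 3 genes changed at both times, TUBB1 upward and the other two downward.

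Of the reversed genes, BTG2, an antiproliferative gene and p53 target, had 63.4 and 63.8 CPM with ruxolitinib at 48 h, against 40.4 and 43.6 CPM with DMSO at 48 h. BTG2 at 4 h had 50.9 and 51.3 CPM with ruxolitinib, against 67.3 and 69.5 CPM with DMSO. It was higher than DMSO at 48 h and lower at 4 h without overlap, and the difference was 1.02 ± 0.08 (adjusted p = 9.4e-11). GFI1, a transcriptional repressor, had 3.11 and 3.18 CPM with ruxolitinib at 48 h, against 5.78 and 5.64 CPM with DMSO at 48 h. The 4 h libraries held 18.2 and 17.4 CPM with ruxolitinib, against 13 and 14 CPM with DMSO. Its level in both treatments was lower at 48 h than at 4 h, and the difference was −1.26 ± 0.17 (adjusted p = 3.3e-06). The rise of GFI1 at 4 h was lost without replicate 1 of ruxolitinib (adjusted p = 0.102) or of DMSO (adjusted p = 0.119) at that time. JUN, an AP-1 subunit, had 6.3 and 6.49 CPM with ruxolitinib at 48 h, against 8.98 and 9.23 CPM with DMSO at 48 h. JUN at 4 h had 83.5 and 83.6 CPM with ruxolitinib, against 66.6 and 67.3 CPM with DMSO. The drop between times in both treatments was far larger than the effect of ruxolitinib, whose difference was −0.83 ± 0.14 (adjusted p = 6.8e-05). PLEKHA6 (−1.45 ± 0.10) and BAMBI, a decoy receptor of BMP and TGF-beta signalling (−0.87 ± 0.11), were also lower at 48 h and higher at 4 h. The rise of PLEKHA6 at 4 h was lost without replicate 1 of DMSO at 4 h (adjusted p = 0.0798).

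Of 8 BMP-SMAD target genes, 1 had a higher and 3 a lower effect at 48 h. The shares of all tested genes were 4.32% and 4.4%. ID1 was the higher one, while ID3, of the same family, had 7.4 and 6.94 CPM with ruxolitinib at 48 h, against 17.8 and 17.8 CPM with DMSO at 48 h. ID3 at 4 h had 12.1 and 11.7 CPM with ruxolitinib, against 14.2 and 12.6 CPM with DMSO. ID3 thus fell late, with a difference of −1.14 ± 0.17 (adjusted p = 1e-05), in the opposite direction to ID1.

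Glycolysis and cholesterol synthesis genes had more lower than higher differences. Among all tested genes, 4.32% had a higher and 4.4% a lower effect at 48 h. Of 31 glycolysis genes, 2 had a higher and 10 a lower effect at 48 h, with a median difference of −0.15, and without single libraries the lower count was 5 to 9. PKLR, the red cell pyruvate kinase with a difference of 1.75 ± 0.12, was not on this list, whose largest difference was 0.354. At 48 h 4 of the glycolysis genes rose and 16 fell, beside 12.5% and 13.2% of all tested genes. At 4 h 2 rose and 5 fell, beside 3.42% and 5.04%. LDHA, lactate dehydrogenase A, had 509 and 488 CPM with ruxolitinib at 48 h, against 657 and 656 CPM with DMSO at 48 h. At 4 h LDHA had 622 and 631 CPM with ruxolitinib, against 637 and 651 CPM with DMSO, and the difference was −0.36 ± 0.06 (adjusted p = 6.4e-05). ALDOC, an aldolase, had a difference of −0.65 ± 0.10 (adjusted p = 4.5e-05). Of 29 cholesterol synthesis genes, 0 had a higher and 7 a lower effect at 48 h, with a median of −0.10. At an unadjusted p under 0.05 these were 0 and 9 by edgeR, and DESeq2 called 0 and 7. Of the 29, 19 fell at 48 h and 6 already at 4 h. INSIG1, which holds back the sterol sensor, had 44.1 and 42.5 CPM with ruxolitinib at 48 h, against 67.4 and 69.8 CPM with DMSO at 48 h. INSIG1 at 4 h had 42.6 and 43.1 CPM with ruxolitinib, against 46.6 and 48 CPM with DMSO. The DMSO level was higher at 48 h than at 4 h and the ruxolitinib level was not, and the difference was −0.52 ± 0.09 (adjusted p = 0.00019). The desaturase SCD and the last enzyme of the pathway, DHCR7, had −0.51 ± 0.08 and −0.51 ± 0.09.

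HSPA1B, MAT2A, SLC7A5 and SLC3A2 were among the early genes, with a fall called at 4 h and not at 48 h. Over the related lists the differences went both ways. Of 33 ATF4 stress response genes 3 had a higher and 4 a lower effect at 48 h, and of 26 heat shock and ER chaperone genes 3 and 2. The shares of all tested genes were 4.32% and 4.4%. HSPA1B, a heat shock protein with a near-identical copy, had 62.9 and 60.3 CPM with ruxolitinib at 48 h, against 57.1 and 55.8 CPM with DMSO at 48 h. At 4 h HSPA1B had 42.1 and 41.9 CPM with ruxolitinib, against 63.7 and 63.2 CPM with DMSO. Its fall at 4 h was called (−0.59 ± 0.06) and its effect at 48 h was not (0.13 ± 0.06), with a difference of 0.72 ± 0.09 (adjusted p = 3.5e-07). MAT2A, which makes S-adenosylmethionine, had a difference of 0.62 ± 0.07 (adjusted p = 3.5e-07). SLC7A5 and SLC3A2, the paired chains of a transporter of large amino acids, had 0.48 ± 0.07 and 0.37 ± 0.07. For both, DMSO itself was lower at 48 h than at 4 h (−0.55 ± 0.05 and −0.62 ± 0.05, both called). Their ruxolitinib levels did not rise. SLC7A5 had 413 and 404 CPM with ruxolitinib at 48 h and 438 and 418 CPM at 4 h, and SLC3A2 had 114 and 110 CPM and 133 and 133 CPM. The serine synthesis genes PHGDH (−0.57 ± 0.10) and PSAT1 (−0.40 ± 0.09) went the other way, with falls called at 48 h and not at 4 h.

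**Figure D5:**
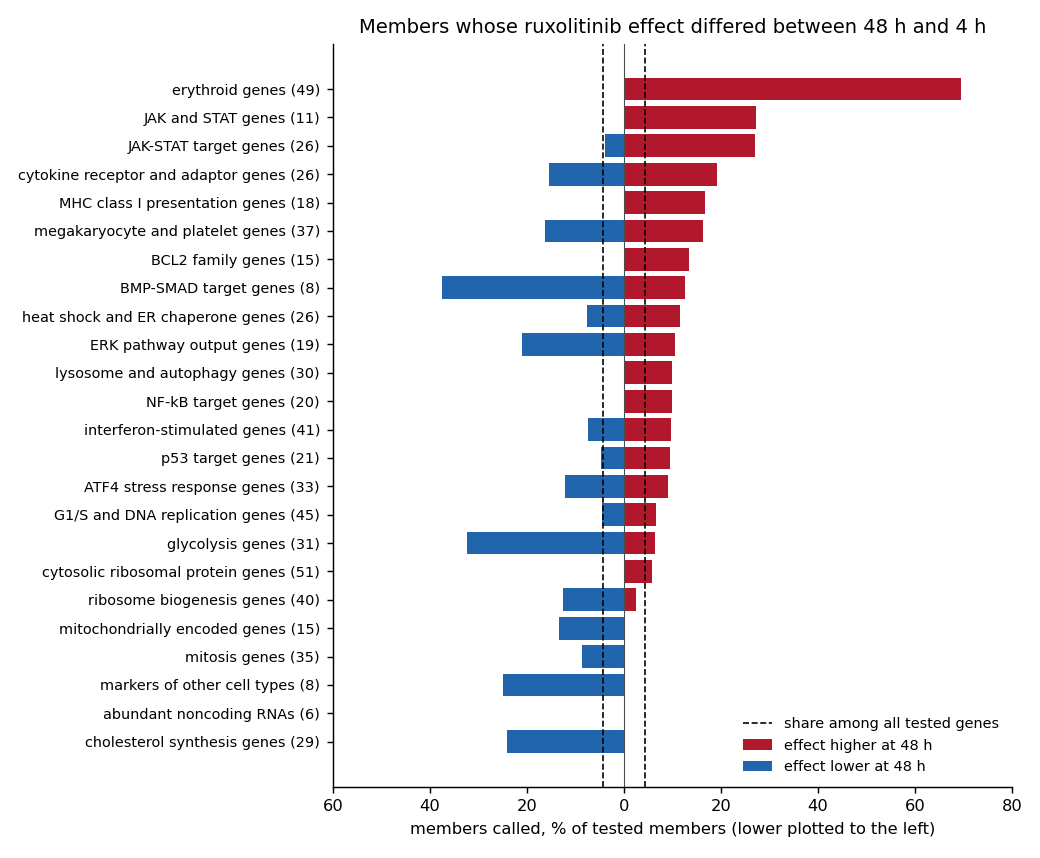
For each of 24 gene lists, the share of tested members (number in parentheses) whose ruxolitinib effect was higher at 48 h (red, right) or lower at 48 h (blue, left), with dashed lines at the shares of all tested genes (4.32% and 4.4%). The erythroid bar, 34 of 49 genes, is the longest. Every other list except the abundant noncoding RNAs also extends past a dashed line on 1 side or both. Some of these bars rest on few members and pass the line narrowly, such as 3 of 51 cytosolic ribosomal protein genes. No list was tested as a set, so a bar past a line is not an enrichment.

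The next counts stand beside shares of 4.32% higher and 4.4% lower among all tested genes. Of 45 genes of G1/S and DNA replication, 3 had a higher and 2 a lower effect at 48 h, the 2 lower being CCND1 and CCND2. Of 35 mitosis genes 0 were higher and 3 lower, beside 1 and 11 at an unadjusted p under 0.05 by edgeR and 1 and 4 called by DESeq2. Of 40 ribosome biogenesis genes 1 was higher and 5 lower, and of 51 cytosolic ribosomal protein genes 3 were higher and 0 lower, beside 7 and 1 at an unadjusted p under 0.05 by edgeR and 3 and 0 called by DESeq2. Of 41 interferon-stimulated genes 4 were higher and 3 lower. The lower ones were the IFITM genes, membrane proteins that restrict viruses. IFITM2 had 143 and 133 CPM with ruxolitinib at 48 h, against 233 and 220 CPM with DMSO at 48 h. IFITM2 at 4 h had 217 and 198 CPM with ruxolitinib, against 216 and 221 CPM with DMSO, and the difference was −0.65 ± 0.08 (adjusted p = 1.3e-06).

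Of 16 markers of other cell types 8 passed the filter, and 0 of these had a higher and 2 a lower effect at 48 h. The shares of all tested genes were 4.32% and 4.4%. At an unadjusted p under 0.05 edgeR gave 0 higher and 3 lower markers, and DESeq2 called 0 and 2. CDH5, the endothelial cadherin, had 3.64 and 2.85 CPM with ruxolitinib at 48 h, against 14.3 and 12.8 CPM with DMSO at 48 h. At 4 h CDH5 had 6.26 and 6.3 CPM with ruxolitinib, against 9.15 and 9.39 CPM with DMSO. The difference was −1.49 ± 0.21 (adjusted p = 4.5e-06), and that of KRT18, a keratin, was −0.94 ± 0.22 (adjusted p = 0.0037). The mitochondrial rRNA MT-RNR1 had 207 and 176 CPM with ruxolitinib at 48 h, against 223 and 338 CPM with DMSO at 48 h. MT-RNR1 at 4 h had 219 and 201 CPM with ruxolitinib, against 56.9 and 17.2 CPM with DMSO. Its called difference of −3.10 ± 0.40, like that of MT-RNR2 (−2.31 ± 0.33), rests on the low DMSO libraries at 4 h.

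The change between the times was also set against that of momelotinib, which inhibits JAK1 and JAK2, and itacitinib, which is selective for JAK1. Here the difference between 48 h and 4 h of 1 inhibitor was subtracted from that of ruxolitinib, so the DMSO libraries drop out, and both comparisons share the ruxolitinib libraries with each other and with all of the above. Against momelotinib the time difference of ruxolitinib was higher for 820 genes (5.1%) and lower for 928 (5.77%), in all 10.9%. Against itacitinib it was higher for 742 genes (4.62%) and lower for 557 (3.46%), in all 8.08%. Without replicate 2 of ruxolitinib at 48 h the counts against itacitinib were 418 and 319. Against momelotinib they were 493 and 601 without its replicate 2 at 48 h. Of the 49 erythroid genes, 39 were higher and 1 lower against momelotinib (median 0.48), and 36 were higher against itacitinib (median 0.39).

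ALAS2 had 133 and 135 CPM with ruxolitinib at 48 h, against 51.1 and 45.1 CPM with momelotinib and 44.2 and 47.4 CPM with itacitinib at 48 h. At 4 h ALAS2 had 44.5 and 38.5 CPM with ruxolitinib, against 38.4 and 36.8 CPM with momelotinib and 35.6 and 38 CPM with itacitinib. Ruxolitinib stood apart at 48 h and hardly at 4 h, and its time difference exceeded that of momelotinib by 1.34 ± 0.12 (adjusted p = 3.7e-10) and that of itacitinib by 1.38 ± 0.12 (adjusted p = 3.7e-10). For HBA2 the excess was 1.60 ± 0.14 (adjusted p = 2.3e-10) and 1.54 ± 0.14 (adjusted p = 8.9e-10). ETV4 had 1.3 and 1.05 CPM with ruxolitinib at 48 h, against 13.3 and 12.4 CPM with momelotinib and 17.5 and 15.4 CPM with itacitinib at 48 h. ETV4 at 4 h had 12.7 and 10.9 CPM with ruxolitinib, against 13.4 and 11.2 CPM with momelotinib and 14.3 and 13.6 CPM with itacitinib. The ruxolitinib and momelotinib libraries overlapped at 4 h, and the ruxolitinib time difference of ETV4 was lower by −3.39 ± 0.22 (adjusted p = 9e-13) against momelotinib and by −3.55 ± 0.21 (adjusted p = 1.8e-13) against itacitinib. For ETV5 the values were −2.71 ± 0.13 (adjusted p = 2.4e-16) and −2.15 ± 0.13 (adjusted p = 1.8e-13).

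For PIM2, CISH and PIM1 the time difference of ruxolitinib was higher than that of both inhibitors. Over the 26 tested JAK-STAT target genes it was higher for 4 and lower for 8 against momelotinib (median −0.25). Of all tested genes, 5.1% were higher and 5.77% lower (median 0.012). Against itacitinib it was higher for 7 and lower for 2 of the 26 (median 0.125), beside 4.62% and 3.46% of all tested genes (median 0.011). A higher time difference does not mean a fuller return, because it also grows with the depth of the fall at 4 h. With DMSO, PIM2 had 156 and 156 CPM at 48 h and 183 and 188 CPM at 4 h. PIM2 had 109 and 104 CPM with ruxolitinib at 48 h, against 157 and 157 CPM with momelotinib and 167 and 152 CPM with itacitinib at 48 h. At 4 h PIM2 had 44.1 and 43.1 CPM with ruxolitinib, against 99.4 and 93.6 CPM with momelotinib and 167 and 166 CPM with itacitinib. Ruxolitinib was the lowest at both times, and its time difference was higher by 0.59 ± 0.09 (adjusted p = 9.3e-06) than that of momelotinib and by 1.35 ± 0.09 (adjusted p = 6.5e-13) than that of itacitinib. For CISH the values were 0.87 ± 0.11 (adjusted p = 1.1e-06) and 1.44 ± 0.11 (adjusted p = 5.9e-11), and for PIM1 0.67 ± 0.08 (adjusted p = 1e-07) and 1.08 ± 0.08 (adjusted p = 1.1e-11). SOCS3 was higher by 1.11 ± 0.20 against itacitinib (adjusted p = 0.00035) and had −0.26 ± 0.21 against momelotinib, which was not called (adjusted p = 0.52). JAK2 was higher by 0.61 ± 0.07 against momelotinib (adjusted p = 4.2e-07) and by 0.42 ± 0.07 against itacitinib (adjusted p = 0.00021).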

How the data were processed

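RNA was sequenced from HEL cells given 500 nM of an inhibitor or DMSO for 4 h or 48 h, in 12 groups of 2 libraries. The submitters' processing notes name bcl2fastq, STAR 2.5.1a, edgeR and the build GRCh38. The deposited table holds raw read counts, whole numbers without normalization, for each gene. How reads were counted, on which annotation and whether by strand is not given in the sources used here, so overlapping antisense genes cannot be told apart. Of 34343 entries, 130 repeated an Ensembl ID with the same counts and were dropped. Genes that the table does not list are not analysed here.

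Counts were filtered with filterByExpr, scaled by TMM and fitted with edgeR 4.0.16 (limma 3.58.1, R 4.3.3), with 1 mean per group over all 24 libraries. The residual degrees of freedom were 12 and the common biological variation was 0.0468 (as a coefficient). Tests were two-sided quasi-likelihood F tests, with Benjamini-Hochberg adjustment over the 16076 tested genes, and called at an adjusted p under 0.05. The SE of a log2 value was its size divided by the square root of F. A single-library effect was a difference of log2 CPM (prior count 0.5) between a ruxolitinib and a DMSO library. Coordinates came from GENCODE 29 (GRCh38) and promoters from RefSeq (GRCh38.p14). The pipeline was tested on simulated data. Replicates of a group were checked and were not duplicates.

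The members and the 24 gene lists were chosen with earlier results of these data known. Genes could be named if they were 1 of 13 set signalling genes, 1 of the 12 largest differences per direction (mean log2 CPM of at least 3, no overlap), among at most 6 called in each list, or 1 of 8 per class and direction. A further 31 named genes, mostly other members of the erythroid, JAK and STAT and ERK lists, were chosen after their values were seen. The alternatives were DESeq2 1.42.0, RLE scaling, testing every gene with a count, asking for 1 CPM in 6 libraries, the compared groups only, the replicate number as a block, leaving out mitochondrial and RN7SL genes, and leaving out each library in turn, where a group left with 1 library was given the spread of the others.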

Additional observations from a re-analysis of the deposited data

Results flagged for a closer look

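The ruxolitinib effect differed between 48 h and 4 h, by a test of the difference itself, for 694 genes with a higher and 708 with a lower effect at 48 h. The time difference of ruxolitinib differed from that of momelotinib for 820 higher and 928 lower genes, and from that of itacitinib for 742 higher and 557 lower genes. Among the genes named in the text, 7 were called in opposite directions at the times. The effect was positive at 48 h and negative at 4 h for BTG2 (difference 1.02 on the log2 scale), IL6ST (0.67) and MYC (0.27). It was negative at 48 h and positive at 4 h for PLEKHA6 (-1.45), GFI1 (-1.26), BAMBI (-0.87) and JUN (-0.83). No group had enough libraries to look for a single outlying library.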

How the results depend on the processing

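Of the 1402 genes with a called difference of effects, 657 were called in all 15 alternatives run for that comparison. The counts of higher and lower genes were 703 and 832 with DESeq2, 655 and 749 with RLE scaling, 680 and 738 without the low-count filter, 714 and 752 with the stricter filter, 879 and 966 in the compared groups alone and 692 and 731 without mitochondrial and RN7SL genes, all within 1.5 times the main counts. With the replicate number as a block they were 743 and 748. The labels do not say that the numbers mark a shared culture, and the correlation of same-numbered libraries' deviations ran from -0.011 to 0.031, so the block was not used as the main fit.

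Leaving out 1 library at a time gave 445 to 545 higher and 464 to 568 lower differences, 1311 to 1426 genes higher and 1422 to 1629 lower at 48 h, and 254 to 316 higher and 462 to 567 lower at 4 h. It gave 230 to 321 genes higher and 258 to 361 lower for DMSO at 48 h against DMSO at 4 h, where all libraries called 649 and 663. For the time difference against momelotinib it gave 493 to 829 higher and 601 to 940 lower, and against itacitinib 418 to 660 and 319 to 530. In each of these fits 1 group held a single library.

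Of 107 genes named in the text, 4 lost the call in the difference in at least 1 alternative (HBE1, IFITM1, NFE2 and SPRY1), 4 lost that at 48 h (GATA1, IL6ST, MYC and SOCS2) and 17 that at 4 h (CBL, CCND1, CDH5, ETV4, FECH, FGFR3, FLT4, GFI1, GYPE, HBA1, IFITM1, IL2RB, IL6ST, KEL, MYC, NFE2 and PLEKHA6). The difference gained a call in at least 1 alternative for 6 genes (EGR1, HBG1, KLF1, OSM, PHLDA1 and SLC40A1). A call at 4 h was gained in at least 1 alternative for 10 genes (ALAS2, FEV, GYPB, HBA2, HBG1, RHCE, SCD, SLC18A2, SPTB and XK). For 4 genes a call at 48 h was gained (JAK1, MT-RNR1, OSM and STAT3). The late class of such genes thus depends on the processing. The sign changed only where the main value was not called. With single libraries left out, the difference ran from -0.00131 to 0.078 for GATA1, from -0.106 to 0.0231 for HBD and from -0.0945 to 0.301 for IL21R. The effect at 4 h ran from -0.21 to 0.205 for HBM, from -0.012 to 0.131 for HBG2, from -0.083 to 0.0748 for IL1RL1 and from -0.0314 to 0.0727 for STAT5B, and that at 48 h from -0.403 to 0.244 for MT-RNR2. HBM at 4 h also gave 0.00383 with RLE scaling and 0.00237 without the filter. Their causes were not tested. Precision is limited by 2 libraries a group, by low counts for CCND1 and HBM, and by near-identical copies (HBA1 and HBA2, HBG1 and HBG2, GYPB and GYPE, RHD and RHCE, HSPA1B).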
